A study of Mus musculus with 24 samples.

Results

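The genes described here are 7 globin genes and 2 other genes of red blood cells, measured in whole guts of mouse embryos. The alpha-like globins are Hba-x, Hba-a1 and Hba-a2, and the beta-like globins are Hbb-y, Hbb-bh1, Hbb-bs and Hbb-bt. Alas2 and Slc4a1 complete the set. The 9 genes were chosen by symbol, and all 9 were listed in each of the 4 deposited tables. Those tables hold 24602 genes for Ret null, 24747 for Sema3d null, 24664 for the double null and 26260 for the model over all guts.

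The question of the study was a genetic interaction between Ret and Sema3d while the enteric nervous system forms from neural crest cells that enter the gut. Guts at embryonic day 12.5 came from 4 genotypes: Ret null homozygotes, Sema3d null homozygotes, Ret-Sema3d double null homozygotes and wildtype embryos. Each genotype had 6 guts, 3 female and 3 male, which makes 24 guts in all, and each gut gave one poly-A library. All 4 groups, wildtype included, were of mixed C57BL/6, 129/Sv and C3H strain. The labels do not say how either null allele was made. Of the 4 tables, 3 each set one null genotype against the same wildtype guts over 12 guts, and the fourth fits all 24 guts with a Ret by Sema3d interaction term. These strains are known to carry different forms of the adult beta-globin locus, and the form carried by each gut is not given in the labels.

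Haemoglobin is made of paired alpha-like and beta-like chains, each holding a heme group. In the mouse embryo the first, primitive red cells arise in the yolk sac and carry the embryonic chains encoded by Hba-x, Hbb-y and Hbb-bh1. Definitive red cells made in the fetal liver carry the adult chains of Hba-a1, Hba-a2, Hbb-bs and Hbb-bt. Primitive cells also shift their own globins as they mature in the circulation, from Hbb-bh1 towards Hbb-y and from Hba-x towards the adult alpha genes. Alas2 encodes the erythroid form of the first enzyme of heme synthesis. Slc4a1 encodes band 3, the anion exchanger that anchors the red cell membrane to its skeleton. The gut is not known as a site of red cell production, and blood reaches it in its vessels. In a whole gut, fewer red cells and less of an mRNA in each red cell cannot be told apart.

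The 3 alpha-like genes lie within 20.9 kb on chromosome 11 of GRCm38 (GENCODE M21), all on the plus strand. Hba-x (ENSMUSG00000055609.8) is at chr11:32276400-32278116, Hba-a1 (ENSMUSG00000069919.7) at chr11:32283511-32284465 and Hba-a2 (ENSMUSG00000069917.7) at chr11:32296489-32297298. The 4 beta-like genes lie within 40.7 kb on the minus strand of chromosome 7. They follow each other as Hbb-y (ENSMUSG00000052187.4, chr7:103851749-103853216), Hbb-bh1 (ENSMUSG00000052217.6, chr7:103841637-103843164), Hbb-bs (ENSMUSG00000052305.6, chr7:103826534-103828096) and Hbb-bt (ENSMUSG00000073940.3, chr7:103812524-103813996). Each globin gene has 3 exons. Alas2 (ENSMUSG00000025270.13) lies on the X chromosome at 150547375 to 150570638, plus strand, with 11 exons. Slc4a1 (ENSMUSG00000006574.15) lies on chromosome 11 at 102348824 to 102366203, minus strand, with 20 exons.

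The adult genes are near copies of each other, which bears on how reads could be divided between them. The coding sequences of Hba-a1 and Hba-a2 are 99.8% identical and differ by 1 substitution, C381T, written with the base of Hba-a1 first and the base of Hba-a2 last. Those of Hbb-bs and Hbb-bt are likewise 99.8% identical, with the single substitution C417T from Hbb-bs to Hbb-bt. Positions are counted from 1 at the first base of the start codon. The stretches around the differing base are shown because they are the coding bases by which a read can be told to come from one copy. They are in mRNA sense from GENCODE M21, cover coding positions 361 to 401 of the alpha genes and 397 to 437 of the beta genes, and have the differing base in capitals.
Hba-a1: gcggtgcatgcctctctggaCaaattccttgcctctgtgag
Hba-a2: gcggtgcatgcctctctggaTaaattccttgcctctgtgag
Hbb-bs: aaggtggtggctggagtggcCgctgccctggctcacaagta
Hbb-bt: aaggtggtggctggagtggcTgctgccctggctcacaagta

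The GENCODE mRNAs used were 554 bases for Hba-a2 and 699 bases for Hba-a1. Over whole mRNAs, 339 of the 455 possible stretches of 100 bases in Hba-a2 (74.5%) occur unchanged in Hba-a1. Of the 600 in Hba-a1, 339 (56.5%) occur in Hba-a2. For the adult beta genes, 331 of 529 stretches of Hbb-bs (62.6%) occur in Hbb-bt and 331 of 604 stretches of Hbb-bt (54.8%) occur in Hbb-bs. The read length was 100 bases per the labels' protocols, so levels of the single adult copies are uncertain, while their sums are less so. Hba-x, Hbb-y and Hbb-bh1 share 0 such stretches with any other of the 7 globin mRNAs. The coding sequence of Hba-x is 62.0% identical to that of Hba-a1, that of Hbb-y is 76.4% identical to that of Hbb-bh1 and 74.3% identical to that of Hbb-bs.

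Promoter sequence was found in the RefSeq table (GRCm38.p6) for 7 of the 9 genes, Hbb-bh1 and Slc4a1 being the others. One embryonic and one adult gene of each family are shown, since the contrast of embryonic and adult globins runs through the results. Each line holds the 120 bases before the RefSeq transcription start, in the sense of the gene, with matches on either strand in capitals. The motifs searched were CACCC (a box bound by Klf-family factors), CCAAT (the CCAAT box), GATAA (the core read by Gata factors) and TATAA (the TATA box). The regions are chr11:32276480-32276599 (plus strand) for Hba-x, chr11:32283552-32283671 (plus strand) for Hba-a1, chr7:103853208-103853327 (minus strand) for Hbb-y and chr7:103827929-103828048 (minus strand) for Hbb-bs.
Hba-x: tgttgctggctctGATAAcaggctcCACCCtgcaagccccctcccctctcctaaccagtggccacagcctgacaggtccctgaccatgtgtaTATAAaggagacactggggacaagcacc
Hba-a1: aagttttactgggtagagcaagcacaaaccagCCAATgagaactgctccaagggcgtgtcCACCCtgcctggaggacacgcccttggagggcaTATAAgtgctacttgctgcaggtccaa
Hbb-y: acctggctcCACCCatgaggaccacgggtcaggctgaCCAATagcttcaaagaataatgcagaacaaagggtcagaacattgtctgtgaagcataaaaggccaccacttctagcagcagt
Hbb-bs: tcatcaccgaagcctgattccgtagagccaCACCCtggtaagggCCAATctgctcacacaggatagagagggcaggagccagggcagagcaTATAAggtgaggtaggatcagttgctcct

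CACCC was matched in all 7 promoters found, against 31.7% of the 32851 promoters in the table over the same 120 bases. CCAAT was matched in 5 of the 7 (21.3% of all promoters), TATAA in 5 (11.8%) and GATAA in 2, Hba-x and Alas2 (10.5%). Hba-a1 and Hba-a2 share an unbroken run of 297 of the 300 promoter bases in the table. A match describes letters in this window and is not a measurement of binding. The printed regions of Hba-x, Hba-a1 and Hbb-bs lie inside their GENCODE genes given above, so RefSeq and GENCODE place these starts differently. The counts of shared stretches and the levels per kb rest on the GENCODE mRNAs and depend on the annotated start.

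The deposited values are coefficients of the authors' models on a log2 scale, with deviances and p-values. They give no value for a single gut, library depth is unknown, and each fit rests on 6 guts per genotype. Fitted levels below are in normalised counts, averaged over the sexes. An error was derived for each log2 coefficient as its size over the square root of the deviance difference; it follows each ± sign, and 95% intervals rest on it. The targeted genes went with their labels: in the authors' deposited table, fitted over 24 guts, the Ret level was 4.72 in Ret null, 1328 in Sema3d null, 1.15 in double null and 1523 in wildtype guts. The Sema3d level was 677 in Ret null, 389 in Sema3d null, 396 in double null and 815 in wildtype guts, so Sema3d mRNA was still counted in both genotypes labelled null for it. Of further red cell markers, Ank1 had a fitted level of 182 and Epb42 of 64.3 in wildtype guts.

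Among the 9 genes in wildtype guts, Hbb-y and Hba-a1 were the most abundant transcripts per length. In the authors' deposited table, fitted over 24 guts, levels per kb of mRNA in wildtype guts were 19886 for Hbb-y, 13960 for Hba-a1, 5578 for Hba-x, 4363 for Hba-a2 and 3411 for Hbb-bs. They were 935 for Hbb-bh1, 634 for Hbb-bt, 183 for Slc4a1 and 107 for Alas2. The beta-like family was thus led by an embryonic gene and the alpha-like family by an adult one. A log2 SD between guts was derived for each gene from its error in the Ret null table, where it ran from 0.36 for Hbb-y to 1.66 for Hba-a2. The step down to the next gene was larger than the combined SD of both genes in 4 of 8 cases: Hba-a1 over Hba-x, Hbb-bs over Hbb-bh1, Hbb-bt over Slc4a1, and Slc4a1 over Alas2. The gap between Hbb-y and Hba-a1 lay within that spread (gap 0.51, combined SD 0.57 on the log2 scale). So did the gaps between Hba-x, Hba-a2 and Hbb-bs as neighbours, and between Hbb-bh1 and Hbb-bt. The combined SD is for single guts and treats both genes as independent, although they were measured in the same guts. The covariance between genes is not given, so these steps are a description and not a test of a difference.

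**Figure D1:**
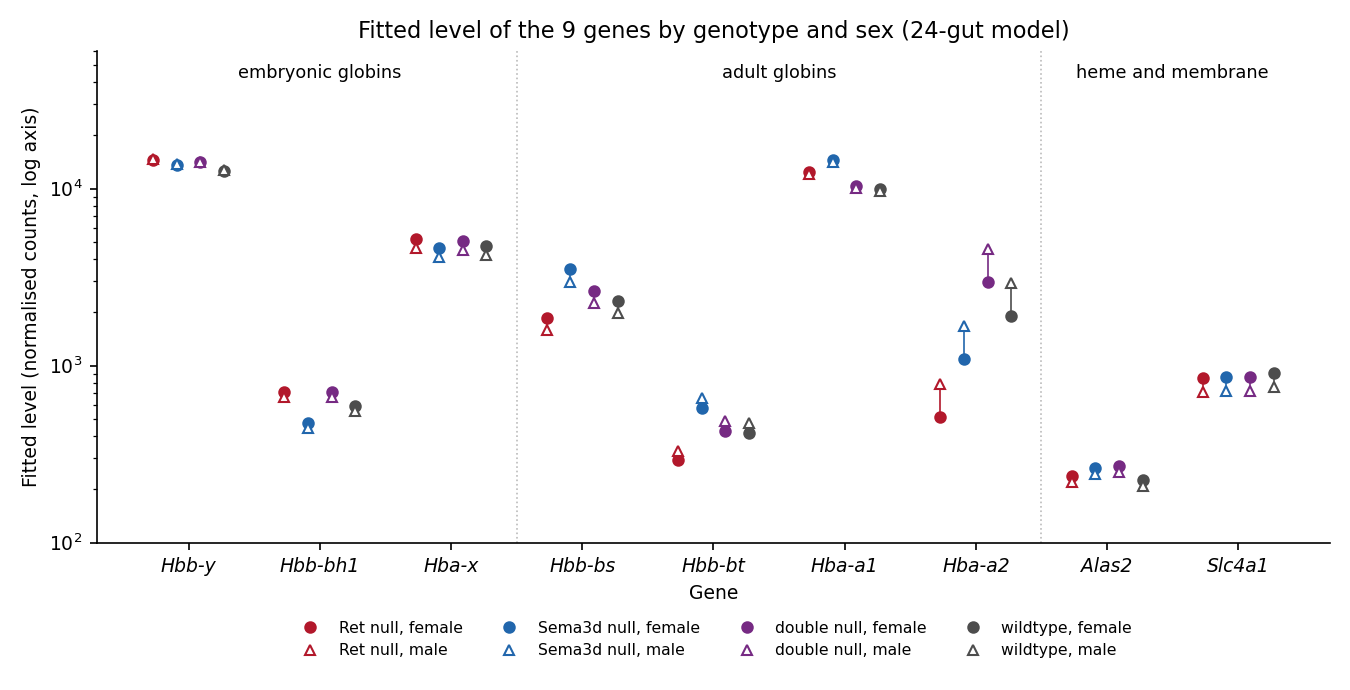
Fitted level in normalised counts (log axis) of each of the 9 genes from the model over all 24 guts, by genotype (colour) and sex (filled circles female, open triangles male). Hbb-y and Hba-a1 are the highest in all 4 genotypes, and Hba-a2 spreads furthest between genotypes.

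Embryonic and adult globins contributed comparable amounts of globin mRNA in these guts. Per kb of mRNA, the embryonic genes Hba-x, Hbb-y and Hbb-bh1 made up 58.1% of the summed globin level in Ret null, 49.0% in Sema3d null, 53.1% in double null and 54.1% in wildtype guts. The embryonic part of the beta-like level was 88.4% in Ret null, 78.7% in Sema3d null, 83.8% in double null and 83.7% in wildtype guts. Hba-x gave 24.7% of the alpha-like level in Ret null, 19.2% in Sema3d null, 21.8% in double null and 23.3% in wildtype guts. In each of these shares the Ret null guts were highest and the Sema3d null guts lowest, and the double null guts lay within 1.5 percentage points of wildtype. No test of these shares can be made, because the tables give no covariance between genes.

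The balance of the families varied less than their composition. The ratio of alpha-like to beta-like level per kb was 0.907 in Ret null, 0.999 in Sema3d null, 0.980 in double null and 0.961 in wildtype guts. The 7 globins together made up 0.295% of the summed normalised counts of all genes in Ret null, 0.324% in Sema3d null, 0.307% in double null and 0.274% in wildtype guts. Each null genotype thus had a larger fitted globin share than wildtype, by amounts that were not tested.

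**Figure D2:**
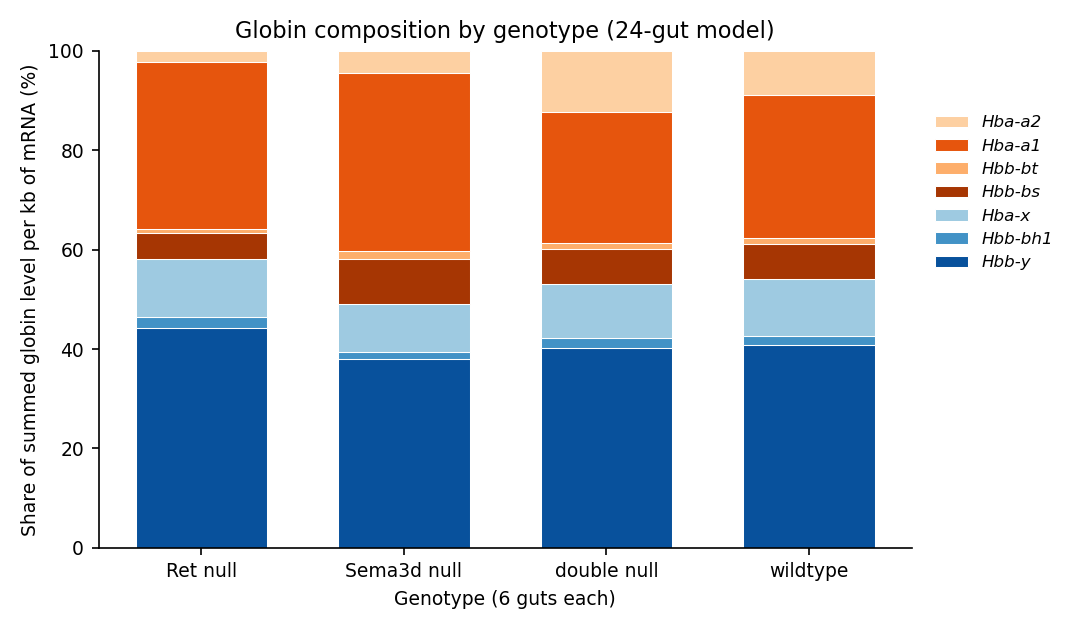
Share of the summed globin level per kb of mRNA (%) taken by each of the 7 globins in each genotype, from the model over all 24 guts; blue marks embryonic and orange adult genes. The embryonic share is 58.1% in Ret null and 49.0% in Sema3d null guts, against 54.1% in wildtype guts.

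None of the 9 genes passed an adjusted p of 0.05 in any comparison of the authors' deposited tables. For Ret null against wildtype this was 0 of 9, where 2.66% of all 24602 genes passed. For Sema3d null against wildtype it was 0 of 9, where 0.0404% of 24747 genes passed. For the double null against wildtype it was 0 of 9, where 2.10% of 24663 genes passed. For the interaction it was 0 of 9, where 0.164% of 26258 genes passed. A count of 0 among 9 genes is near each of these backgrounds. In the authors' deposited tables (likelihood ratio of the models, Benjamini-Hochberg), an unadjusted p under 0.05 was reached by Hba-a2 for Ret null, by Hba-a1 for Sema3d null, by none for the double null, and by both for the interaction. The matching shares of all genes were 8.43%, 4.53%, 6.71% and 6.79%. The median log2 change of the 9 genes was 0.06 for Ret null, 0.13 for Sema3d null and 0.11 for the double null, and the median interaction coefficient was 0.00. Over all genes at a fitted level of 50 or more these medians were 0.01, 0.00, 0.00 and 0.00 in the same order.

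**Figure D3:**
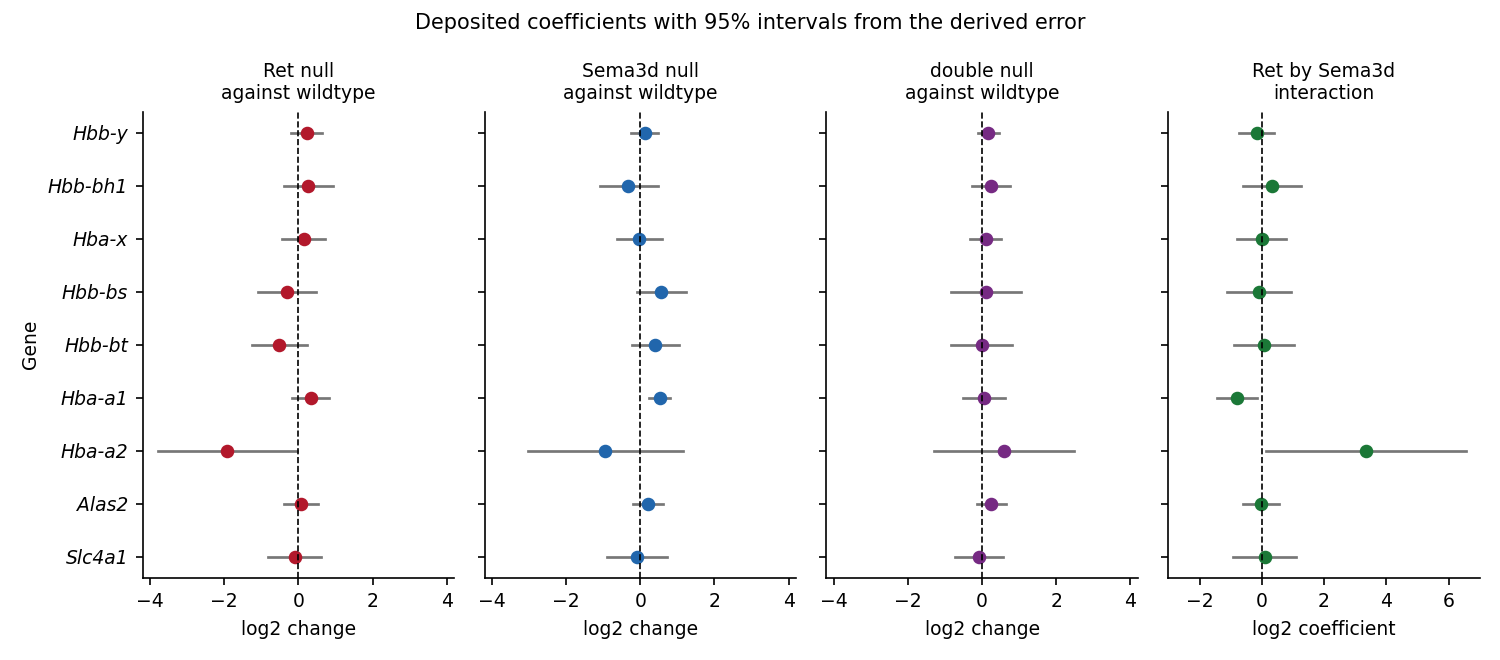
Deposited log2 coefficients of the 9 genes in the 4 tables (points), with 95% intervals from the derived error (lines); the dashed line marks 0. Most intervals cross 0, and those of Hba-a2 are the widest in every table.

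No embryonic globin reached an unadjusted p under 0.05 in any of the 4 tables. In the authors' deposited table, fitted over 24 guts, Hbb-y, which encodes the epsilon-y chain, had levels of 14575 in Ret null, 13650 in Sema3d null, 14115 in double null and 12588 in wildtype guts. All 3 null genotypes lay above wildtype for this gene, by less than the error allows to call. Against wildtype its log2 change in the authors' deposited tables was 0.22 ± 0.21 (Ret null), 0.13 ± 0.19 (Sema3d null) and 0.17 ± 0.15 (double null). Hbb-y had the smallest error of the 9 genes in the Ret null and double null tables, and its 95% intervals were −0.19 to 0.63 (Ret null), −0.24 to 0.49 (Sema3d null) and −0.12 to 0.46 (double null).

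Hbb-bh1, whose chain is made earliest in primitive cells, had fitted levels of 685 in Ret null, 460 in Sema3d null, 688 in double null and 573 in wildtype guts. It was highest in both genotypes without Ret and lowest in the Sema3d null guts. Against wildtype, the authors' deposited tables give log2 changes of 0.26 ± 0.34 (Ret null, p = 0.443), −0.32 ± 0.40 (Sema3d null, p = 0.427) and 0.24 ± 0.26 (double null, p = 0.365). Hba-x, which encodes the zeta chain, had fitted levels of 4891 in Ret null, 4354 in Sema3d null, 4782 in double null and 4468 in wildtype guts. The log2 changes of Hba-x in the authors' deposited tables were 0.14 ± 0.30 (Ret null), −0.03 ± 0.31 (Sema3d null) and 0.09 ± 0.22 (double null). The interaction coefficient of Hba-x in the authors' deposited table was 0.00 ± 0.40.

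The fitted levels of both adult beta-globins stood below wildtype in Ret null guts and above it in Sema3d null guts, and neither gene passed the test. Hbb-bs, the more abundant of the pair, had fitted levels of 1716 in Ret null, 3244 in Sema3d null, 2443 in double null and 2142 in wildtype guts. Hbb-bt had fitted levels of 312 in Ret null, 617 in Sema3d null, 456 in double null and 445 in wildtype guts. Both genes thus stand in the same order of genotypes, and their shared sequence limits how far they can be told apart. In the authors' deposited tables the log2 change of Hbb-bs was −0.31 ± 0.40 for Ret null, 0.56 ± 0.34 for Sema3d null (p = 0.0930) and 0.11 ± 0.48 for the double null. That of Hbb-bt in the authors' deposited tables was −0.52 ± 0.37 for Ret null, 0.41 ± 0.33 for Sema3d null and −0.01 ± 0.42 for the double null. Summed over both genes in normalised counts, not scaled by length, the level was 2028 in Ret null, 3861 in Sema3d null, 2899 in double null and 2587 in wildtype guts. The share of Hbb-bt in that sum lay between 15.4% (Ret null) and 17.2% (wildtype) in the 4 genotypes.

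Set side by side, the mean coefficient of the 2 embryonic beta genes minus that of the 2 adult beta genes was 0.65 for Ret null, −0.58 for Sema3d null and 0.16 for the double null, on the log2 scale of the authors' deposited tables. In the Ret null table the embryonic mean was 0.24 and the adult mean −0.41. In the Sema3d null table the embryonic mean was −0.10 and the adult mean 0.49. For the alpha family, Hba-x minus the mean of the 2 adult genes was 0.93 for Ret null, 0.19 for Sema3d null and −0.23 for the double null in the authors' deposited tables. By these means the families had the same sign in the Ret null table and opposite signs in the Sema3d null and double null tables. The alpha mean weighs Hba-a2, with its large error, equally with the more abundant Hba-a1. A summed level of both copies was added after the values were seen. In the 24-gut fit that sum changed by 0.08 in Ret null, 0.36 in Sema3d null and 0.20 in double null guts. Hba-x changed there by 0.13, −0.04 and 0.10. The alpha sign for Sema3d null thus turns with the way the copies are combined. The 3 comparisons share the wildtype guts, and no p can be given for these differences.

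Of the adult alpha-globins, Hba-a2 held the largest log2 coefficient of the set in every table, together with the largest error. Hba-a1 had fitted levels of 12226 in Ret null, 14260 in Sema3d null, 10210 in double null and 9758 in wildtype guts. It was highest in Sema3d null guts, and its change there had the smallest p of any of the 9 genes in any table. The log2 change of Hba-a1 in the authors' deposited Sema3d null table was 0.52 ± 0.15, a fold of 1.43 (95% interval 1.17 to 1.74), with p = 0.000404 and an adjusted p of 0.232 (Benjamini-Hochberg over the table). The model described this gene less well than most. Its residual deviance per degree of freedom was 1.90 in that table, above 99.3% of genes, where the median was 0.623. The error, interval and p of Hba-a1 there may therefore be too small. For Hba-a1 the authors' deposited tables give log2 changes of 0.33 ± 0.25 for Ret null (p = 0.193) and 0.05 ± 0.29 for the double null (p = 0.872), and its interaction coefficient was −0.81 ± 0.33 (p = 0.0139, adjusted p = 0.538).

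Hba-a2 was the most variable of the 9 genes. Its fitted levels were 650 in Ret null, 1379 in Sema3d null, 3780 in double null and 2417 in wildtype guts. Both single nulls were thus below wildtype and the double null above it. In the authors' deposited tables its log2 changes were −1.92 ± 0.96 in Ret null (p = 0.0461, adjusted p = 0.574), −0.95 ± 1.07 in Sema3d null (p = 0.375) and 0.60 ± 0.96 in double null guts (p = 0.531). The fold for Ret null was 0.265, with a 95% interval of 0.0718 to 0.977. Its interaction coefficient in the authors' deposited table was 3.35 ± 1.63 (p = 0.0402, adjusted p = 0.704).

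In the single nulls the fitted levels of the alpha copies lay on opposite sides of wildtype, and their sum lay closer to it than either. In normalised counts, not scaled by length, Hba-a1 and Hba-a2 together reached 12876 in Ret null, 15638 in Sema3d null, 13989 in double null and 12175 in wildtype guts. In this sum, a setting added after the values were seen, Ret null guts stood 0.08 and Sema3d null guts 0.36 above wildtype on the log2 scale, so the direction of Hba-a2 in both single nulls is not that of the pair. Hba-a2 took 5.05% of the sum in Ret null, 8.82% in Sema3d null, 27.0% in double null and 19.9% in wildtype guts. Most of the sum was thus Hba-a1, so the side of wildtype on which the sum lay largely follows from Hba-a1. The split between the alpha copies thus ranged over more than 5-fold between genotypes, where that of the beta copies stayed between 15.4% and 17.2%. The part that the division of reads between the copies has in this was not tested.

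Alas2 and Slc4a1 are not near copies of another gene in the set, and neither reached an unadjusted p under 0.05 in any table. Alas2 had fitted levels of 228 in Ret null, 254 in Sema3d null, 260 in double null and 218 in wildtype guts. The log2 changes of Alas2 in the authors' deposited tables were 0.06 ± 0.24 (Ret null), 0.21 ± 0.20 (Sema3d null) and 0.25 ± 0.20 (double null). Slc4a1 had fitted levels of 780 in Ret null, 792 in Sema3d null, 787 in double null and 834 in wildtype guts. Here all 3 null genotypes lay just below wildtype, with log2 changes in the authors' deposited tables of −0.10 ± 0.36, −0.09 ± 0.42 and −0.09 ± 0.33 for Ret null, Sema3d null and double null. The interaction coefficients in the authors' deposited table were −0.03 ± 0.30 for Alas2 and 0.09 ± 0.52 for Slc4a1.

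The errors of these genes were large for their level, which sets what the comparisons could show. In the Ret null table the derived error of the log2 change ran from 0.21 for Hbb-y to 0.96 for Hba-a2, and each was above that of 96.1% to 99.9% of genes within 0.5 log2 units of the same fitted level. The error was 2.46 times (Alas2) to 19.7 times (Hba-a2) the median of such genes. In the Sema3d null table the factor was 1.65 to 12.2, and in the double null table it was 2.05 to 19.0. The spread between guts behind these errors was thus wider for the 9 genes than for most genes of like level in all 3 comparisons. At the strength of the weakest called gene, a log2 change of 0.67 (Hbb-y) to 3.08 (Hba-a2) would have been needed for a call in the Ret null table. For Sema3d null that size was 0.64 (Hba-a1) to 4.68 (Hba-a2), and for the double null 0.49 (Hbb-y) to 3.16 (Hba-a2). The 0.64 of Hba-a1 rests on a poorly fitting model and may be too small. These sizes hold for single genes at their derived errors, and smaller fitted changes would not have been called. The summed globin content was not tested.

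**Figure D4:**
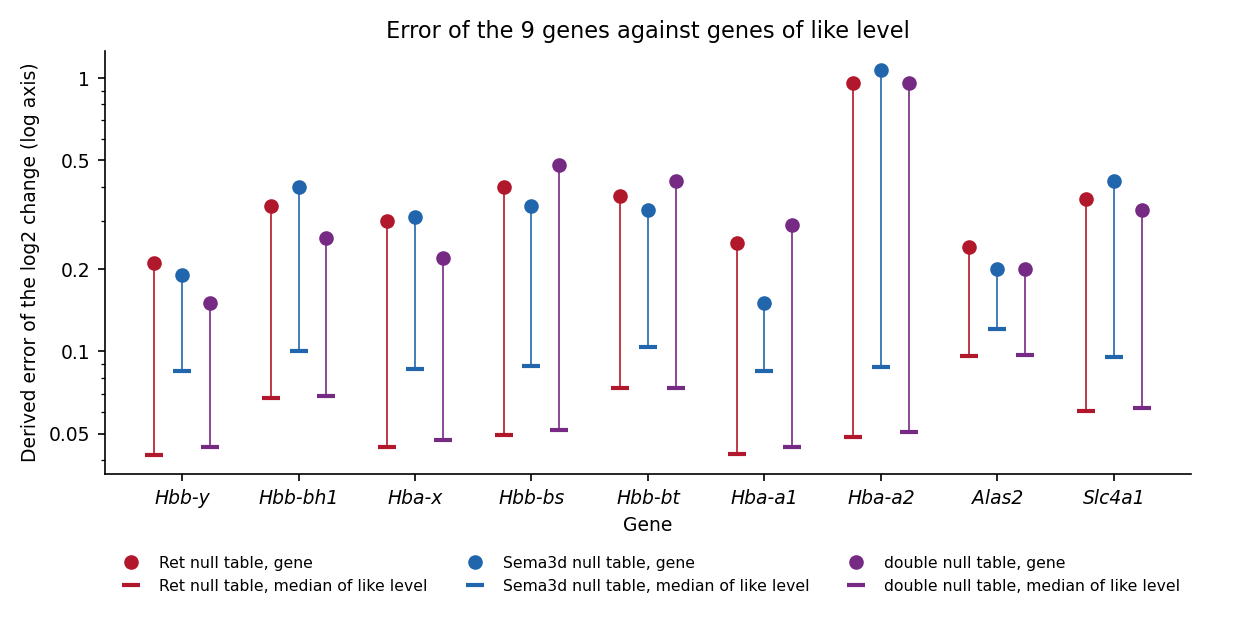
Derived error of the log2 change (log axis) of each of the 9 genes in the 3 tables against wildtype (circles), with the median error of genes within 0.5 log2 units of the same fitted level (bars). Every circle lies above its bar, by 1.65-fold at the least (Alas2, Sema3d null) and 19.7-fold at the most (Hba-a2, Ret null).

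The wider set of red cell genes was described through 8 lists with 100 entries: other globins, heme synthesis, heme handling, erythroid transcription factors, membrane and cytoskeleton, iron uptake, red cell enzymes, and erythropoietin signalling. For Ret null, 1 of 97 measured genes was higher and 2 were lower (3.09%, against 2.66% of all genes), with a median log2 change of −0.06. For Sema3d null, 1 of 97 was higher and 0 lower (1.03%, against 0.0404% of all genes, with a median of 0.08). For the double null, 0 of 98 were higher and 2 lower (2.04%, against 2.10% of all genes, with a median of 0.01). For the interaction 0 of 98 passed in the authors' deposited table (0.164% of all genes) and 3 had an unadjusted p under 0.05 (6.79% of all genes), with a median coefficient of 0.06. The share for Sema3d null rests on 1 called gene.

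The genes that passed were Alad, Hebp1, Add2 and Tmod1. Alad, the second enzyme of heme synthesis and active in all cells, rose in Ret null guts by 0.90 ± 0.15 on the log2 scale of the authors' deposited table (adjusted p = 1.8e-07, Benjamini-Hochberg). Its fitted levels were 865 in Ret null, 692 in Sema3d null, 641 in double null and 469 in wildtype guts, and its change was not called for Sema3d null (0.58 ± 0.21) or the double null (0.45 ± 0.26). Of the 14 genes listed for heme synthesis and mitochondrial iron import, Alad was the 1 that passed in the Ret null table. Hebp1, a heme-binding protein, rose in Sema3d null guts by 0.88 ± 0.19 (adjusted p = 0.0137 in the authors' deposited table). Both others, of 20 membrane and cytoskeleton genes, fell in both genotypes without Ret. Add2, a subunit of the spectrin-binding protein adducin that neurons also make, had log2 changes in the authors' deposited tables of −0.89 ± 0.12 for Ret null (adjusted p = 1.31e-11) and −0.87 ± 0.12 for the double null (adjusted p = 1.03e-11). Tmod1, a capping protein of actin filaments likewise present in neurons, had −1.71 ± 0.36 for Ret null (adjusted p = 0.000125) and −1.56 ± 0.39 for the double null (adjusted p = 0.00433) in the authors' deposited tables. For Sema3d null the changes were −0.00 ± 0.12 for Add2 and −0.18 ± 0.31 for Tmod1, neither of which passed.

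Of 15 erythroid transcription factors and cofactors, 0 passed the authors' deposited adjusted p (Benjamini-Hochberg) in any of the 4 tables; at an unadjusted p under 0.05 there were 2 for Ret null, 1 for Sema3d null, 1 for the double null and 0 for the interaction, where the shares of all genes were 8.43%, 4.53%, 6.71% and 6.79%. These counts are near those backgrounds. Gata1, a master regulator of the lineage, had fitted levels of 12.7 in Ret null, 30.3 in Sema3d null, 25.9 in double null and 23.3 in wildtype guts. Klf1, the activator of adult beta-globin, had 19.6 in Ret null, 49.5 in Sema3d null, 41.8 in double null and 35.7 in wildtype guts. The listed regulators with the highest levels stood in another order: Tcf3 had 4268 in Ret null, 4064 in Sema3d null, 3905 in double null and 3934 in wildtype guts. Ldb1 had 3195 in Ret null, 3056 in Sema3d null, 3160 in double null and 3009 in wildtype guts, and Bcl11a 1348, 1226, 1390 and 1269 in that order of genotypes. For Gata1 and Klf1 the log2 changes in the authors' deposited tables were −0.86 ± 0.95 (Gata1) and −0.83 ± 0.82 (Klf1) for Ret null, and 0.37 ± 0.88 and 0.35 ± 0.77 for Sema3d null.

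Several liver genes, like Hba-a2, had their lowest fitted level in Ret null guts. The 15 hepatocyte genes listed gave 0 calls in each table (the authors' deposited adjusted p), with 0, 5, 0 and 3 at an unadjusted p under 0.05 for Ret null, Sema3d null, double null and the interaction, against 8.43%, 4.53%, 6.71% and 6.79% of all genes. The list's median log2 change lay at −1.10 (Ret null), 0.68 (Sema3d null) and 0.16 (double null), and its median interaction coefficient at 1.27. Their summed fitted level was 1563 in Ret null, 4497 in Sema3d null, 4546 in double null and 2825 in wildtype guts. Alb is part of this sum, although its model did not converge. Afp, the fetal serum protein with the highest fitted level of the list, had fitted levels of 281 in Ret null, 1719 in Sema3d null, 2003 in double null and 929 in wildtype guts. Ahsg had 0.815 in Ret null, 25.8 in Sema3d null, 26.6 in double null and 10.9 in wildtype guts. Ret null guts were lowest for Hba-a2, Afp, Fga and Ahsg alike. Sema3d null guts were below wildtype for Hba-a2 and above it for Afp, Fga and Ahsg. Other genes of the list, among them Apob (569, 653, 686 and 670 in the same genotype order) and Ttr (157, 240, 188 and 183), varied less. Car1, a carbonic anhydrase of red cells, was counted at 0.159 in Ret null, 2.62 in Sema3d null, 1.87 in double null and 2.47 in wildtype guts, a level too low for a fold. The part of liver tissue or liver-derived cells in the globin values was not tested.

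**Figure D5:**
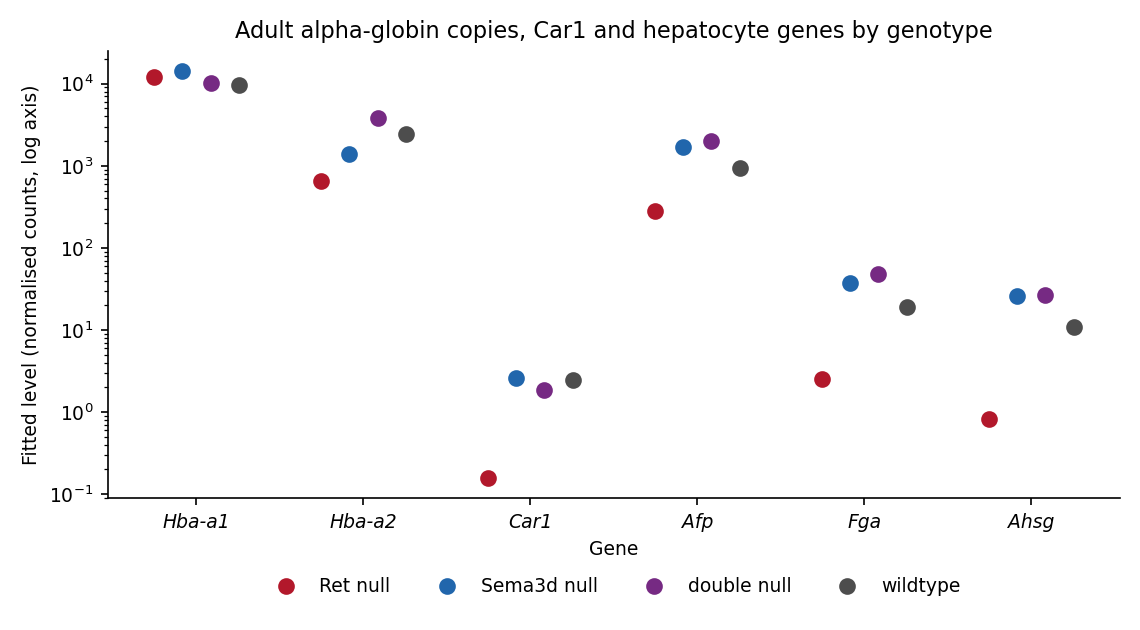
Fitted level in normalised counts (log axis) of Hba-a1, Hba-a2, Car1 and the hepatocyte genes Afp, Fga and Ahsg in each genotype, from the model over all 24 guts. Ret null guts have the lowest fitted level of the 4 genotypes for Hba-a2, Car1, Afp, Fga and Ahsg, and not for Hba-a1. Errors are not drawn.

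Blood reaches the gut in vessels, and endothelial genes were higher in one comparison. In double null guts 7 of 15 endothelial genes rose (authors' deposited adjusted p, Benjamini-Hochberg), where 2.10% of all genes passed, with a median log2 change of 0.26. In Ret null and Sema3d null guts 0 of 15 passed, with 0 and 4 at an unadjusted p under 0.05 (8.43% and 4.53% of all genes) and medians of 0.03 and 0.20. Cdh5, the cadherin of endothelial junctions, rose by 0.28 ± 0.06 and Pecam1, a surface protein of the same cells, by 0.29 ± 0.06 on the log2 scale of the authors' deposited table (adjusted p = 6.59e-05 and 6.23e-05). The 9 red cell genes had a median log2 change of 0.11 in the same table, and the part of vessel content in them was not tested.

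The authors' deposited tables give a sex coefficient for each gene and no p-value for it. Hba-a2 was higher in males in all 4 deposited tables, by 0.24 to 1.25 on the log2 scale of male minus female. Slc4a1 was lower in males in all 4, with log2 differences between −0.60 and −0.15 in the authors' deposited tables. Hbb-y lay between 0.01 and 0.13, above 0 in all 4 tables. Alas2, although X-linked, lay between −0.27 and 0.09, and Hbb-bs between −0.87 and 0.09. The remaining 4 genes had both signs or values of about 0 among the tables. These tables share the wildtype guts, so their signs are not separate observations.

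The distance of each gene to the median of the 9 genes was taken over the 4 log2 coefficients (sex, Ret, Sema3d and interaction) of the 24-gut fit. Alas2 lay closest to the median of the 9 genes, at 0.107, with 1.12% of 12091 other genes closer. Hba-x followed at 0.179 (17.4% of other genes closer), Hbb-y at 0.250 (47.3%), Slc4a1 at 0.309 (65.3%) and Hbb-bh1 at 0.571 (92.6%). The adult globins lay further out, Hbb-bs at 0.637 (94.0%), Hbb-bt at 0.737 (95.6%), Hba-a1 at 0.957 (97.2%) and Hba-a2 at 4.05 (99.7%). Most other genes thus lay closer to this median than Slc4a1, Hbb-bh1 or any adult globin. These distances are not scaled by the errors of the coefficients, and Hba-a2, the furthest out, also had the largest error. The 9 genes themselves set this median, so a gene in their middle is close to it by construction. The 5 genes outside the red cell lists nearest to the median were Plau (distance 0.0266), Csrnp1 (0.0361), Ccm2l (0.0382), Syk (0.0383) and G0s2 (0.0477), whose own coefficients were all close to 0.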

How the data were processed

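Poly-A RNA from 24 mouse guts was measured, 6 per genotype. Per the submitters' processing notes, FastQC 0.11.5, Trimmomatic 0.36, STAR (version not given in the sources used here), RSEM 1.2.31 and DESeq 1.24.0 were used with GRCm38 (mm10); roles and order are not given there. The 4 tables the authors deposited hold log2 coefficients of intercept, sex and genotype terms; those of the 24-gut model include a few unbounded fits and were handled as a score with no fixed range. The model deviances the authors deposited are likewise a score of fit. The p-values and adjusted p-values are as the authors deposited them. The Ret null table has its gene symbol and gene type headers exchanged; both were read by content. No header names the logarithm's base: base 2 gives summed wildtype levels of 11.6 to 12.0 (1e6 normalised counts) and the natural base 435 to 458, and base 2 was used. No counts or values per library were at hand, so no count test was run and depth is unknown; columns of other samples numbered 0.

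Fitted levels are 2 to the power of the coefficient sums, averaged over the sexes. The derived error is the coefficient's size over the square root of the deviance difference, and was tested on simulated data; the SD between guts is that error scaled to one gut. The strength needed for a call is the smallest such quotient among called genes of a table. Adjusted p below 0.05 was a call. Lengths are mRNA lengths of GENCODE M21. Replicates are separate guts per the labels. Python 3.11.15, numpy 2.4.6, pandas 2.3.3, scipy 1.17.1 and matplotlib 3.10.9 were used. Named genes are the 9 members, and from each of the other lists every called gene, up to 3 genes with the highest level and up to 2 with the smallest p per table, plus the 5 nearest genes by coefficient distance; Car1, Fga, Ahsg, Gata1, Klf1, Ank1 and Epb42 are named as fixed markers or by that rule, and some genes are not reported here. Members and lists were chosen with earlier results of these data known. Other thresholds, centring, filters, the 24-gut fit and length measures were tried as alternatives.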

Additional observations from a re-analysis of the deposited data

How the results depend on the processing

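The count of called genes stayed at 0 of 9 in all 4 comparisons with an adjusted p below 0.10, with adjustment over genes of a fitted level of at least 50, and with coefficients centred on the median gene. At an unadjusted p below 0.05 the counts were 1 and 1 for the Ret and Sema3d single nulls, 0 for double null guts and 2 for the interaction. Of the alternatives for single genes, 3 turned the direction. The log2 change of Hbb-bt in double null guts was 0.03 in the 24-gut fit. That of Hba-a2, read as the sum of both alpha copies (added after seeing the data), was 0.08 in Ret null and 0.36 in Sema3d null guts. This sum is mostly Hba-a1. A natural logarithm would move all 9 fitted levels, that of Hbb-y in wildtype guts to 822189. The embryonic share in wildtype guts stayed between 53.3% and 54.1% over the tables and with coding length. The tables fit the same wildtype guts, so their likeness in this share is not a separate check. No paired analysis was possible because the tables hold no values per library; for that reason neither a replicate block nor leaving out single guts was run. The error of each gene and the division of reads between copies limit what can be seen.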

Other observations

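Macrophages, which clear spent red cells, were followed through 12 listed genes. In Ret null guts 0 of 12 passed the authors' deposited adjusted p (Benjamini-Hochberg), 6 were lower at an unadjusted p under 0.05 (8.43% of all genes reached that p), and the median log2 change was −0.24. None of the 12 passed in the other tables either, with 1 higher at an unadjusted p under 0.05 for Sema3d null (median 0.18), 0 for the double null (median −0.06) and 2 higher for the interaction (median −0.02), against 4.53%, 6.71% and 6.79% of all genes. Their summed fitted level was 1336 in Ret null, 1610 in Sema3d null, 1500 in double null and 1570 in wildtype guts. Of 11 genes of megakaryocytes and platelets, 0 passed in any table; at an unadjusted p under 0.05, 1 was lower for Ret null, 1 was higher for the double null and 0 were past it for Sema3d null or the interaction, with a summed level of 724 in Ret null, 759 in Sema3d null, 791 in double null and 725 in wildtype guts. Of 8 genes that neighbour the globin clusters, 0 passed in any of the authors' 4 deposited tables and 1 had an unadjusted p under 0.05, in the interaction.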
